A study of Ovis aries with 5 samples.

Results

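In perirenal adipose tissue of fetal sheep, 228 autosomal regions were enriched for both H3K27ac and H3K27me3 and lacked a joint H3K4me3 region. The regions were chosen by overlap of the deposited joint region lists: an H3K27ac region on chromosomes 1 to 26 had to share at least 1 bp with an H3K27me3 region and none with an H3K4me3 region. They made up 0.867% of the 26301 autosomal H3K27ac regions without H3K4me3. The same overlap with H3K27me3 was found for 392 of the 8598 autosomal H3K27ac regions that did meet H3K4me3, which is 4.56%. Because the peak positions themselves chose the regions, these counts are a description and carry no test.

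Histone H3 acetylated at lysine 27 (H3K27ac) marks active promoters and enhancers. Trimethylation of the same lysine (H3K27me3) is laid down by the Polycomb repressive complex and marks silenced genes, many of them developmental regulators, often in broad domains. A single H3 tail cannot carry both modifications at that lysine, whereas a nucleosome with unlike tails, the other allele, a neighbouring nucleosome or another cell can. Trimethylation of lysine 4 (H3K4me3) marks promoters, so H3K27ac without it is commonly used to pick candidate enhancers. The tissue was analysed in bulk, so regions that carry both marks in the same cells and regions that carry 1 mark in some cells and the other mark in other cells cannot be told apart.

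Chromatin immunoprecipitation followed by sequencing (ChIP-Seq) had been carried out on untreated, wild type, pure bred merino fetuses, labelled as 132 days old, to test predicted regulatory elements of the sheep genome. The methods place the collection slightly earlier in gestation. H3K27ac and H3K4me3 were each measured in 2 fetuses, here replicate 1 and replicate 2, and the same 2 animals supplied both marks by the labels. The methods name more animals for H3K4me3 than the 2 libraries analysed here. Input DNA pooled over the fetuses was the control. After duplicate removal the H3K27ac libraries held 144038222 and 145716523 tags, the H3K4me3 libraries 92882463 and 109652707, and the input 26651829. H3K27me3 entered through its joint list alone, so its strength at a region is not given here. Adipose marker genes were not analysed here, because the region lists name no genes. No genotype or treatment was compared, and with 2 animals per mark no test over animals was made. Differences between sets of regions are described and were not tested. The 95% Wilson intervals beside some shares reflect the number of regions counted and say nothing of how animals vary.

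Most of the 228 regions shared a substantial stretch with H3K27me3 and did not merely touch it. The shared stretch ran from 24 to 11169 bp with a median of 1542 bp, and the middle of the distribution lay between 1074 and 2363 bp (lower and upper quartiles). As a share of the H3K27ac region it ran from 0.334 to 100%, with a median of 31.7% and quartiles of 20.3 and 57.0%. Added over all regions, 0.422 of 1.23 Mb of acetylated sequence lay in H3K27me3, which is 34.4%. At least 10% of the H3K27ac region was covered in 204 regions, at least 25% in 145, at least 50% in 68, at least 75% in 36 and at least 90% in 19. Typical regions were therefore acetylated mainly outside H3K27me3, with a minority lying mostly within it.

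Contact at the edge alone by 200 bp or less, about the length of 1 nucleosome with its linker, was found in 11 regions (4.82%, interval 2.72 to 8.43%). Raising the limit to 500 bp gave 22 regions (9.65%) and raising it to 1 kb gave 47 (20.6%). H3K27me3 nevertheless reached past an edge more often than it lay wholly inside. Regions met at an edge include some that H3K27me3 covered almost wholly. How far the lengths of the regions alone would give these shares was not tested. H3K27me3 reached over 1 edge of the H3K27ac region in 129 regions (56.6%) and over both edges in 15 (6.58%). It lay wholly inside the H3K27ac region in 72 (31.6%), and both reached over an edge and lay inside in 8 (3.51%). Only 4 H3K27ac regions (1.75%) were enclosed by H3K27me3. Of the 392 regions that also carried H3K4me3, H3K27me3 lay wholly inside 151 (38.5%) and reached over 1 edge of 177 (45.2%).

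**Figure D1:**
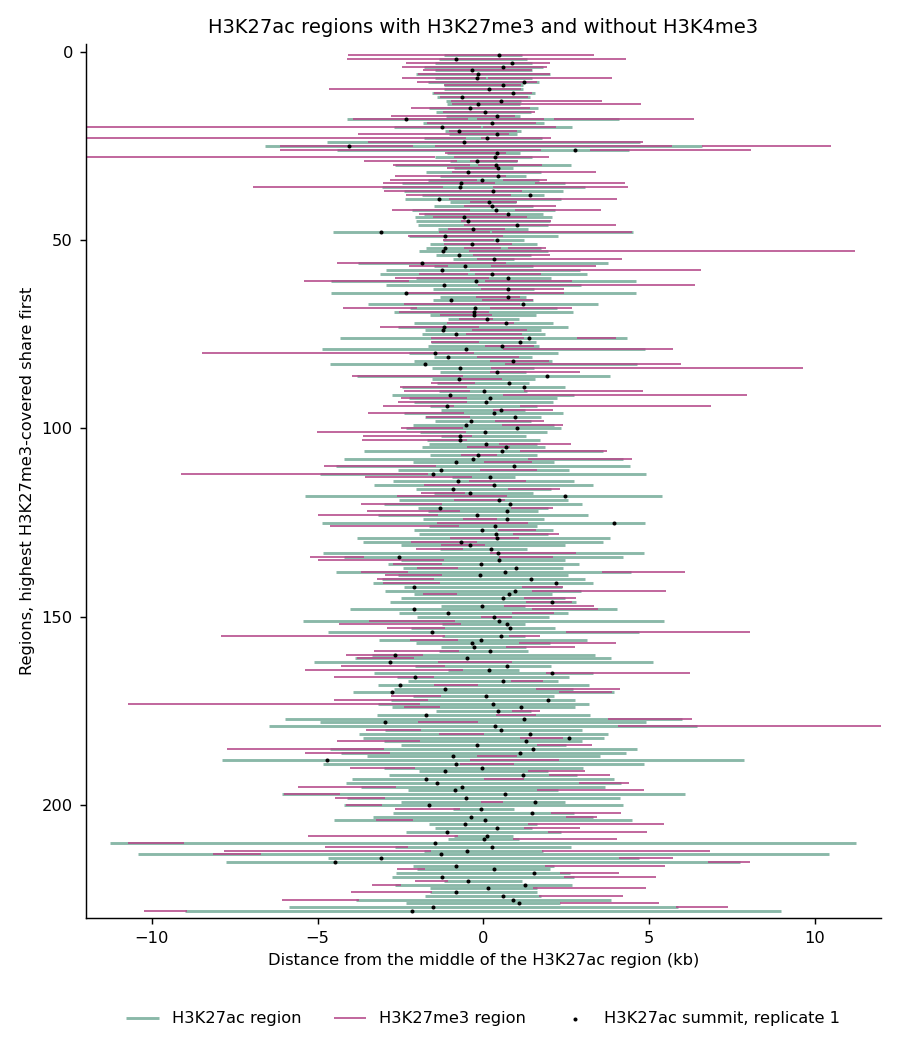
The 228 regions are drawn 1 per line, ordered by the share that H3K27me3 covers, against distance in kb from the middle of the H3K27ac region. Green lines are H3K27ac regions, purple lines are H3K27me3 regions (cut at 12 kb from the middle) and black points are H3K27ac summits of replicate 1. The purple lines cover most of the green ones at the top and only their ends or short inner stretches at the bottom.

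**Figure D2:**
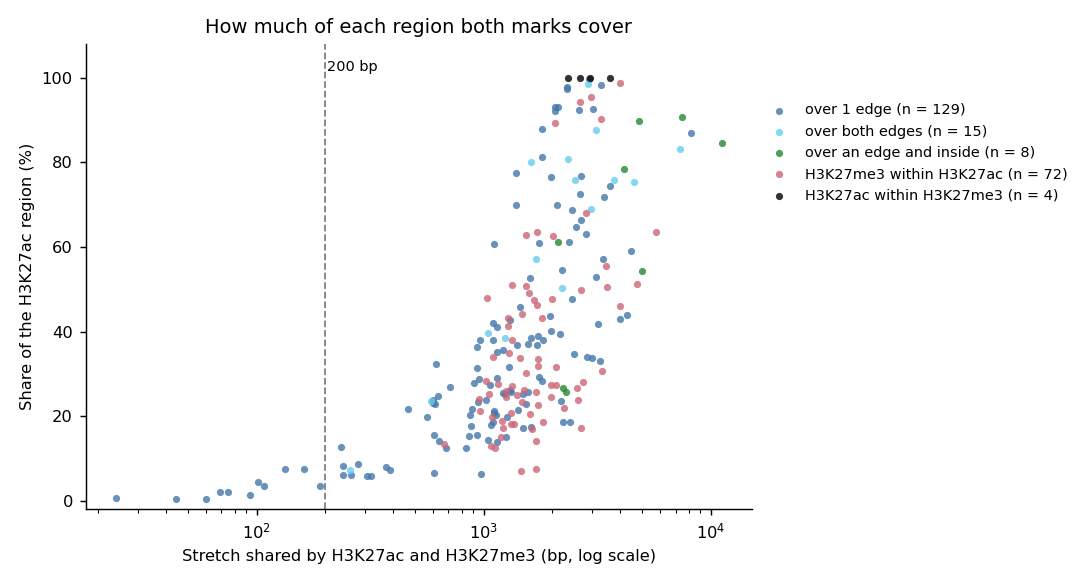
Each point is 1 of the 228 regions, with the shared stretch in bp on a log axis and its share of the H3K27ac region in percent, coloured by where H3K27me3 lies. The 11 points left of the dashed line at 200 bp are the regions that barely touch H3K27me3, beside a median of 1542 bp over all points.

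The H3K27ac regions were of ordinary size. Their median length was 4489 bp (1766 to 22501 bp), beside 4328 bp for the 26073 autosomal H3K27ac regions that met no joint region of H3K27me3 or H3K4me3, called comparison regions below. The share of H3K27ac regions without H3K4me3 that met H3K27me3 was 0.836, 0.836, 0.806 and 0.989% from the shortest to the longest length quartile. The H3K27me3 regions were of ordinary length as well. The 250 H3K27me3 regions that met the 228 regions had a median length of 2343 bp, beside 2384 bp for all 15430 autosomal H3K27me3 regions, of which they made up 1.62%. A median of 82.9% of each of these H3K27me3 regions lay inside H3K27ac, with quartiles of 36.8 and 100%. Seen from H3K27me3 the overlap was therefore larger than seen from H3K27ac. A single H3K27me3 region was met by 201 of the 228, and 27 met more than 1, with 3 the highest number.

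The overlap did not rest on 1 H3K27ac library in most regions. The peaks of replicate 1 by themselves reached H3K27me3 in 218 regions (95.6%), those of replicate 2 in 198 (86.8%), and both in 188 (82.5%). In the 40 regions where 1 library alone reached it, 30 through replicate 1 and 10 through replicate 2, the shared stretch had a median of 949.5 bp, beside 1721 bp in the other 188.

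The longest shared stretch, 11169 bp, was at chr1:96516420-96529608 on Oar_v3.1, the genome build of all positions here, where 3 H3K27me3 regions covered 84.7% of an H3K27ac region of 13189 bp. H3K27ac fold enrichment over input was 30.83 in replicate 1 and 19.52 in replicate 2, so the libraries differed more there than in most regions. The strongest H3K27ac peak there held 2400 tags in replicate 1 and 497 in replicate 2. Shared stretches were measured on joint regions, so the part acetylated in both libraries may be shorter and is not given for single regions. Next came chr14:22324894-22334319 with 8205 bp (87.0%) and fold enrichments of 27.67 and 24.76. A stretch of 7448 bp (90.8%) was shared at chr25:40959958-40968156, with 21.92 and 20 in the libraries. In these 3 regions the H3K27ac summit, the position of highest tag density, lay inside H3K27me3 in both libraries, and both H3K4me3 libraries had a peak although the joint list had none. At the region on chromosome 1 the strongest H3K4me3 peaks had an FDR, the share of peaks expected to be false, of 0.84 and 0.87%, and lay at different places that did not overlap.

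The region chr6:15401798-15410610 shared 7339 bp (83.3%) with H3K27me3 reaching over both of its edges. Its fold enrichments were 23.14 and 26.45, its summit lay outside H3K27me3 in both libraries, and neither H3K4me3 library had a peak. At chr10:83929953-83939009 the shared 5757 bp (63.6%) lay wholly inside the H3K27ac region, with fold enrichments of 31.07 and 27.98. At chr8:56908018-56917204 the shared 4983 bp were 54.2% of the region, with 23.57 and 26.43. The summits of these 3 regions thus fell in the acetylated part without H3K27me3, although H3K27me3 covered more than 50% of each region. In replicates 1 and 2 their strongest H3K27ac peaks held 1031 and 508 tags on chromosome 6 and 1357 and 488 on chromosome 10. On chromosome 8 the tags were 1102 and 1430.

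The 4 H3K27ac regions enclosed by H3K27me3 were short, from 2346 to 3604 bp, and were picked out after their values were seen. The first, chr1:37733704-37736049, had H3K27ac fold enrichments of 22.82 and 27.18. The second, chr12:40943823-40946760, had 22.33 and 20.87, and its H3K4me3 peaks reached 54.81 and 44.94. Another, chr18:41316528-41320131, had 16.25 and 17.05, and the last, chr11:60546570-60549235, had 15.67 and 18.57. All were called in both H3K27ac libraries, the last pair below the lower quartiles of the 228 regions, 21.0 and 19.9 in the libraries.

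Regions on both sides of the overlap limit lay close to it. Just inside, chr18:58320468-58325118 shared 24 bp with H3K27me3, chr2:217778162-217789882 shared 44 bp and chr25:26455745-26473716 shared 60 bp, each at 1 edge. Just outside, chr16:39751191-39753712 ended 4 bp from the nearest H3K27me3 region, and chr5:40799075-40801132 and chr1:206651095-206655642 ended 7 bp from theirs. The H3K27ac fold enrichments of the 3 regions inside were 24.2, 25.42 and 29.23 in replicate 1 and 30.1, 29.72 and 30.18 in replicate 2. Those of the 3 regions outside were 24.27, 25.73 and 23.81 in replicate 1 and 28.64, 23.79 and 29.05 in replicate 2.

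H3K27ac at the 228 regions was slightly lower than at the comparison regions, by more in replicate 2 than in replicate 1. In replicate 1 the fold enrichment of the strongest peak ran from 15.4 to 39.8 with a median of 23.4, and in replicate 2 from 14 to 41.3 with a median of 22.8. The comparison regions had medians of 24.3 and 24.4. Regions with all 3 marks had medians of 27.7 and 25.7, and the 8206 with H3K27ac and H3K4me3 but no H3K27me3 had 31.9 and 29.5. Tags per kb gave 145 and 138 in the 228 regions and 146 in both libraries for the comparison regions. The quartiles of fold enrichment among the 228 regions were 21.0 and 27.4 in replicate 1 and 19.9 and 26.4 in replicate 2. Median tags were 571 and 483.5, beside 553 and 537, so by tags replicate 1 was the higher and replicate 2 the lower.

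The animals gave similar H3K27ac values at these regions. Every region had to be found in both libraries to enter the joint list, so part of this agreement was set by the choice of regions. The log2 ratio of replicate 2 to replicate 1 had a median of -0.03 (-0.71 to 0.55), and its absolute size had a median of 0.17, beside 0.16 in the comparison regions. Across the 228 regions the fold enrichments of the libraries had a Pearson's r of 0.629 and a Spearman's rho of 0.579, both libraries having been scaled to the same input. The comparison regions gave 0.657 and 0.627 (n = 26073). Summits of the libraries lay a median of 156 bp apart, beside 168 bp. The largest difference between the animals, chosen after the values were seen, was at chr9:21140623-21144277, with 28.69 in replicate 1 and 17.5 in replicate 2.

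**Figure D3:**
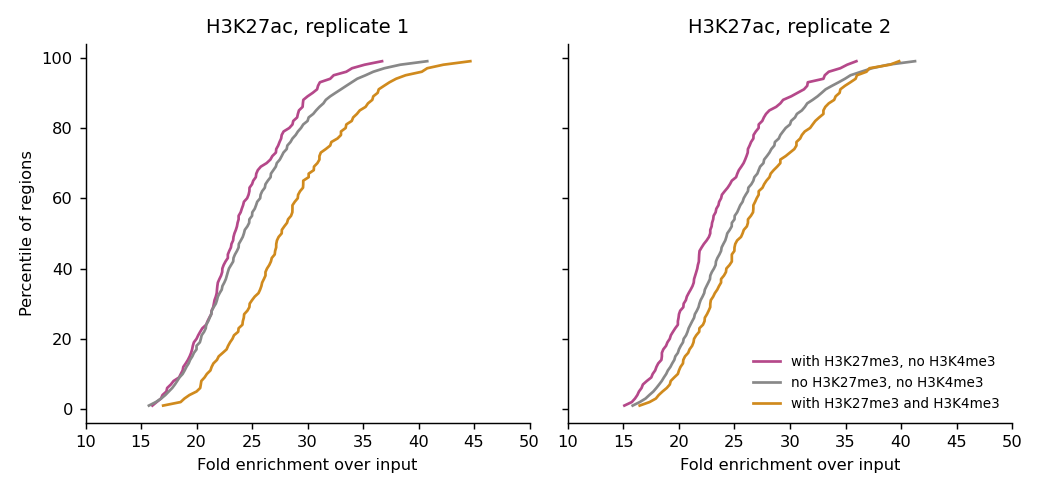
Percentiles of regions are plotted against H3K27ac fold enrichment over input, 1 panel per animal, for the 228 regions (purple), the 26073 comparison regions (grey) and the 392 regions with all 3 marks (orange). The purple curves lie slightly left of the grey ones at the middle, at medians of 23.4 and 22.8 beside 24.3 and 24.4, and the orange curves lie to the right.

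The most strongly acetylated of the 228 regions, ranked by the lower of both libraries, was chr12:56175045-56184871, with fold enrichments of 39.81 and 41.26. Its 1832 bp of H3K27me3 were a short inner stretch, 18.6% of 9827 bp, and the H3K27ac summits of both libraries lay outside it. The region chr25:41111589-41116513 followed with 36.41 and 35.44, and there H3K27me3 reached over both edges, covered 75.7% and held the summit in both libraries. Fold enrichments were 39.03 and 35.07 at chr15:56373673-56379158, where H3K27me3 covered 319 bp at 1 edge. At chr21:817484-826681 they were 34.47 in both libraries, with an inner stretch of 4723 bp. At chr2:217974495-217984713 they were 34.13 and 33.65, with an inner stretch of 2248 bp. Strong acetylation was thus found both beside and over H3K27me3.

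The strongest acetylation usually lay outside H3K27me3. The H3K27ac summit was inside it in 72 regions in replicate 1 (31.6%, interval 25.9 to 37.9%) and in 75 in replicate 2 (32.9%, interval 27.1 to 39.2%), beside a mean share covered of 39.96% over the 228 regions. It was inside in both libraries in 57 regions, in 1 library in 33 and in neither in 138 (60.5%). When the regions were divided into quartiles of 57 by the share covered, 0, 10, 18 and 44 had the summit of replicate 1 in H3K27me3 and 0, 8, 19 and 48 that of replicate 2, from the least to the most covered. The mean share covered was 11.6, 25.4, 42.4 and 80.4% in these quartiles. The share of summits in H3K27me3 was thus below the mean share covered in the 3 less covered quartiles and on either side of it in the most covered one. In the regions with all 3 marks the summit was in H3K27me3 in 54.8 and 58.2%, where the mean share covered was 49.4%. Setting summits beside the share covered takes them to fall evenly along a region, which was not tested. Of the 228 regions 144 (63.2%) met H3K27me3 at edges only, where summits may be fewer.

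The more of a region H3K27me3 covered, the shorter the region was. Median lengths were 5984, 5116, 4191 and 3272 bp from the least to the most covered quartile, and length is part of the share itself. Median H3K27ac fold enrichments in the same order were 25.7, 23.0, 23.3 and 22.8 in replicate 1 and 23.5, 22.7, 22.9 and 21.7 in replicate 2.

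Although none of the 228 regions met the joint H3K4me3 list, many held an H3K4me3 peak of a single library, or of both, that had not entered the list. A peak at any FDR was present in 123 regions in replicate 1 (53.9%, interval 47.5 to 60.3%) and in 136 in replicate 2 (59.6%, interval 53.2 to 65.8%). The comparison regions had one in 18.4 and 37.8%. A peak of either library was found in 159 regions (69.7%) and peaks of both in 100 (43.9%), beside 41.5 and 15.2% of all 26301 autosomal H3K27ac regions without H3K4me3. No peak of either library was found in 69 (30.3%). The excess over the comparison regions was thus seen in both animals, by more in replicate 1 than in replicate 2.

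The joint H3K4me3 list holds overlapping peaks of both libraries at an FDR of at most 1%. At that limit the strongest H3K4me3 peak passed in 40 of the 228 regions (17.5%) in replicate 1 and 11 (4.82%) in replicate 2, beside 2.54 and 3.49% of the comparison regions. Where a peak was present, its fold enrichment had medians of 23.0 and 29.1, beside 23.2 and 29.9 in the comparison regions. Its median tag counts were 177 and 219.5, beside 142 and 189. At the limit of 1% the counting interval of the 228 regions was 13.2 to 23.0% in replicate 1 and 2.72 to 8.43% in replicate 2. Such an interval treats regions as independent and is no test of the difference.

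The share of regions with an H3K4me3 peak at any FDR was higher in each quartile of H3K27me3 coverage than in the one before. It was 40.4, 49.1, 57.9 and 68.4% in replicate 1 and 38.6, 56.1, 66.7 and 77.2% in replicate 2. In either library it was 49.1, 64.9, 77.2 and 87.7%. In the least covered quartile it was close to the comparison regions in replicate 2 (38.6%, interval 27.1 to 51.6%, beside 37.8%). In replicate 1 it was higher than in them (40.4%, interval 28.6 to 53.3%, beside 18.4%). Median region length fell over the same quartiles, and length is part of the share covered. By length quartile of all H3K27ac regions without H3K4me3, longer regions of this set held a peak of either library more often. The shares were 65.5, 67.3, 71.7 and 73.8% from the shortest to the longest. Peaks were thus more frequent in longer regions and in more covered ones, although the more covered regions were shorter. The link between length and these peaks was described and was not tested.

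**Figure D4:**
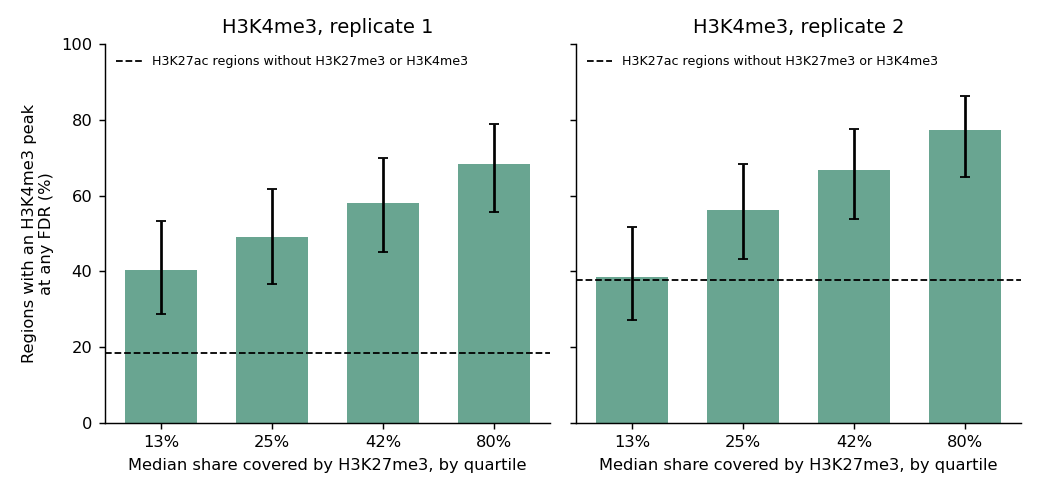
Bars give the percent of regions with an H3K4me3 peak at any FDR in each quartile of 57 regions, labelled by the quartile's median share covered by H3K27me3, 1 panel per animal, with 95% Wilson intervals. The dashed line marks the 26073 comparison regions, 18.4% in replicate 1 and 37.8% in replicate 2. The bars increase from left to right in both animals.

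The 228 regions also held H3K4me3 peaks more often than comparison regions of like length or as far from joint H3K4me3 regions. Within quartiles of length set over all H3K27ac regions without H3K4me3, a peak of either library was found in 65.5, 67.3, 71.7 and 73.8% of the 228 regions from the shortest to the longest, beside 33.1, 35.0, 40.7 and 56.2% of the comparison regions. Among regions over 50 kb from any joint H3K4me3 region it was found in 62 of 89 (69.7%), beside 37.2%. Peaks of both libraries were found in 41.6% there, beside 11.8%.

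These H3K4me3 peaks often met the H3K27me3 regions that overlap the H3K27ac regions. The strongest peak touched such an H3K27me3 region in 95 of 123 regions in replicate 1 (77.2%) and in 95 of 136 in replicate 2 (69.9%). Contact beyond the end of the H3K27ac region was counted as well, so these counts do not measure contact with the shared stretch alone. Where the H3K4me3 summit lay inside the H3K27ac region, it was in H3K27me3 in 67 of 109 regions in replicate 1 (61.5%, interval 52.1 to 70.1%) and in 60 of 126 in replicate 2 (47.6%, interval 39.1 to 56.3%). The mean share covered in those regions was 45.7 and 46.8%. The H3K4me3 summit was thus in H3K27me3 more often than that share in replicate 1 and about as often in replicate 2. This takes summits to fall evenly along a region, which was not tested.

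The 228 regions lay nearer to joint H3K4me3 regions than the comparison regions did. The gap to the nearest joint H3K4me3 region ran from 62 to 827268 bp with a median of 31826 bp, beside 47882 bp for the comparison regions. It was within 5 kb for 48 regions (21.1%, interval 16.3 to 26.8%), beside 8.73%, and within 1 kb for 17 (7.46%), beside 2.52%. It was over 50 kb for 89 (39.0%), beside 48.8%.

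The smallest gaps, picked out after the values were seen, show how close some regions came to the H3K4me3 limit of the rule. The region chr2:241837181-241842019 ended 62 bp from a joint H3K4me3 region, chr2:133964674-133970026 118 bp and chr23:55349952-55353046 160 bp. The last was covered to 95.5% by H3K27me3, with H3K27ac fold enrichments of 32.04 and 24.58 and H3K4me3 peaks of 54.02 and 52.59. The farthest region, chr9:24741977-24748336, lay 827268 bp away and had no H3K4me3 peak in either library, with H3K27ac at 27.23 and 26.34.

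The surroundings of the 228 regions held more H3K27me3 and less H3K27ac than those of the comparison regions. H3K27me3 lay within 50 kb on either side, outside the region itself, in 203 regions (89.0%), beside 15.5% of the comparison regions. It covered a median of 5.97% of these flanks, beside 0%, and over 10% of them in 79 regions (34.6%), beside 1.83%. Part of this is the same H3K27me3 region running over an edge, which the rule brings with it. At 19 kb from the edge, 10.1% of positions beside the 228 regions were still in H3K27me3, beside 0.736% for the comparison regions, and at 49 kb 5.92%, beside 1.07%. H3K27ac covered a median of 8.97% of the flanks, beside 16.6%. The 392 regions with all 3 marks had medians of 3.50% for H3K27me3 and 7.74% for H3K27ac, so they shared this pattern.

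**Figure D5:**
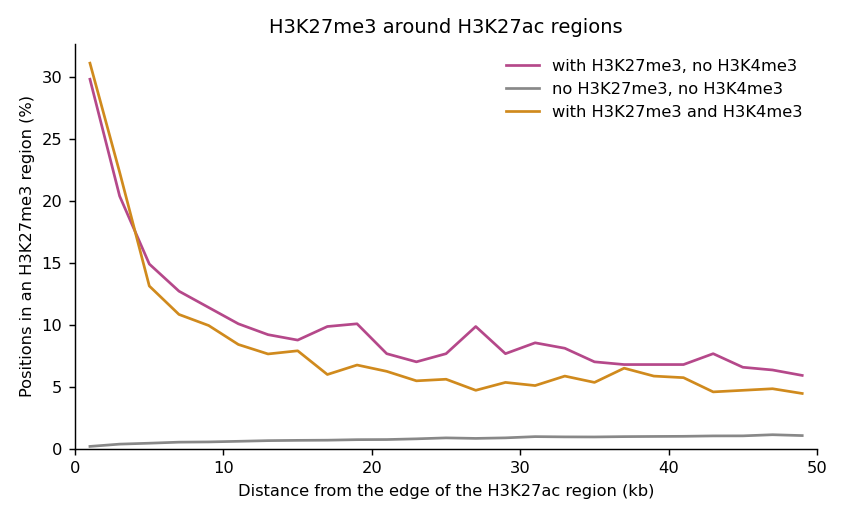
The percent of positions in an H3K27me3 region is plotted against distance in kb from the edge of the H3K27ac region, both sides together, for the 228 regions (purple), the comparison regions (grey) and the regions with all 3 marks (orange). The purple curve falls from 29.8% at 1 kb to 5.92% at 49 kb and stays above the grey curve, which reaches 1.07%.

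The regions were spread over all 26 autosomes. Chromosome 3 held 20, chromosomes 2 and 20 held 18 each, and chromosomes 1 and 12 held 17 each. As a share of H3K27ac regions without H3K4me3, chromosome 20 had 2.79%, chromosome 12 1.99% and chromosome 11 1.97%, and chromosome 5 had the smallest share with 0.268%, beside 0.867% over all autosomes. Gaps of at most 50 kb joined 48 of the 228 regions (21.1%) into 20 groups, of which 15 held a pair. The largest group held 6 regions in 112.8 kb at chr10:83906259-84019025, with 14537 bp shared in all and median fold enrichments of 29.1 and 22.9. It includes the region with 5757 shared bp described above. Neighbouring regions may not be independent of each other, which was not tested. A group of 3 at chr25:40959958-41013660 shared 13390 bp and includes the region with 7448 shared bp.

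The study had also listed genome regions with signs of selection in domestic sheep (sweep regions). Of the 228 regions 5 (2.19%) overlapped a sweep region, beside 1.24% of the comparison regions, a difference of few regions that was not tested. Genes named here are those the study lists for the sweep and are not shown to be targets of the region. The region chr22:21199083-21207489 lay in a sweep listed with LBX1, a homeobox transcription factor of muscle precursor and spinal cord development. H3K27me3 covered 1077 bp (12.8%) of it and 50.4% of its flanks, H3K27ac fold enrichments were 25.83 and 23.46, and neither H3K4me3 library had a peak. Its surroundings were thus far richer in H3K27me3 than the median of 5.97%.

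The region chr20:51084406-51089515 lay in a sweep listed with IRF4, an interferon regulatory factor of lymphocytes and adipose tissue, and DUSP22, a phosphatase. H3K27me3 lay in an inner stretch of 1256 bp (24.6%), and H3K27ac was at 21.93 and 20. The region chr20:15249401-15252210 lay in a sweep whose listed genes include TREM2, a receptor of myeloid cells, and NFYA, a subunit of a CCAAT-binding factor. H3K27me3 covered 94.4% of it, and H3K27ac was at 20.87 and 18.93. The region chr21:49789075-49791929, in a sweep whose listed genes include SIRT3, a mitochondrial deacetylase, was covered to 92.4% with H3K27ac at 22.31 and 22.69. The region chr15:78081185-78086149, in a sweep listed with SERPING1, the inhibitor of complement C1, was covered to 17.7% with H3K27ac at 29.58 and 25.42. The 5 regions thus included both slightly and almost wholly covered ones.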

How the data were processed

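Members, alternatives and lists were chosen with earlier results of these data known. Reads had been mapped by the authors to Oar_v3.1 in CLC Genomics Workbench, and the authors called peaks per library with MACS 1.4.2 against the pooled input. For each peak the deposited files give positions, the tag count, a score (-10 times log10 of the p-value), the fold enrichment as a linear ratio over input and the FDR in percent. The deposited joint lists hold positions of regions found in both replicates. By the names of the lists the FDR limits were 10% for H3K27ac, 5% for H3K27me3 and 1% for H3K4me3. The paper's methods state lower limits for H3K27ac and H3K4me3. The labels describe no H3K27me3 sample, so 2 per-library H3K27me3 files were left out.

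Overlaps, gaps and flanks were computed from the lists in Python 3.11.15 with numpy 2.4.6 and pandas 2.3.3, with positions read as 1-based. The overlap code was tested on simulated regions. Each region took the values of its strongest peak per library. Because the input was much shallower than the ChIP libraries, fold enrichment rests on few input tags. Since every fetus was compared with the same pooled input, errors in it are shared.

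Regions named were the 6 with the longest shared stretch, the 5 with the highest lower fold enrichment of both libraries, the 3 shortest overlaps, the 3 nearest without overlap and 5 inside sweep regions. Others are said to have been picked after their values were seen. Gene lists, cell type markers and sequence were not analysed here, as no genome or annotation of Oar_v3.1 was used.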

Additional observations from a re-analysis of the deposited data

Results flagged for a closer look

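Some H3K27ac regions that the comparisons above do not use also met H3K27me3 without H3K4me3. Of 1132 autosomal regions with overlapping H3K27ac peaks in both libraries that missed the joint list, 2 did so. At chr16:39726109-39745167 the fold enrichments were 32.86 and 32.88, with an FDR of 28.18% in replicate 1 and 4.68% in replicate 2, and 1401 bp (7.35%) were shared. At chr23:55903614-55914569 they were 30.6 and 30.53, with FDRs of 14.84 and 9.24%, and 1260 bp (11.5%) were shared.

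On chromosome X, which the rule leaves out, 152 of 191 H3K27ac regions without H3K4me3 met H3K27me3 (79.6%), beside 0.867% on the autosomes. H3K27me3 covered a median of 99.5% of those 152 regions, beside 31.7% of the autosomal ones. How much of chromosome X as a whole lies in H3K27me3 was not measured. These values therefore do not show a trait of its acetylated regions. The sex of the fetuses is not given in the labels used here, and a link with it was not tested.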

How the results depend on the processing

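Of 26 alternative values, 14 stayed within a margin and 12 moved: counts by a factor of 1.5, the median share by the SD of 1.12 percentage points between libraries, and other shares by their 95% Wilson interval. The 228 regions became 68 when at least 50% of the H3K27ac region had to be covered and 69 when regions with an H3K4me3 peak in any library were dropped. They were between 257 (without replicate 1) and 419 (without replicate 2) when the H3K27ac peaks of a single library were used, which drops the demand for both animals. When the rule was applied afresh to the stretches that lie in H3K27ac peaks of both libraries, 203 stretches met it. These are pieces and not whole regions, so they are not a count of the 228. The median share covered, 31.7%, was 38.8% for these pieces, between 38.6 and 40.2% with 1 library, and 22.8% in the regions with no H3K4me3 peak. Edge contact alone, 4.82% at 200 bp, was 2.63% at 100 bp and 9.65% at 500 bp, and between 5.01 and 6.23% with 1 library. The share with an H3K4me3 peak at any FDR, 69.7%, was 43.9% for peaks in both libraries and between 53.9 and 59.6% with 1 library. The share of summits in H3K27me3 was 32.2% as the mean of both libraries and between 31.6 and 32.9% with 1. No paired analysis was possible because no result comes from a test between groups, and values of both marks are given for each animal.

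The limits are few animals, 1 shallow pooled input, joint lists without H3K27me3 values, and a bulk tissue. The merging that made the joint lists sets where regions end, so short overlaps at an edge depend on it.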
